A study of Mus musculus with 2 samples.

Results

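Antioxidant and glutathione genes were examined in cells of the mouse embryonic aorta sorted by a Gata2 reporter. They were chosen by symbol: superoxide dismutases and catalase, glutathione peroxidases, peroxiredoxins with sulfiredoxin, the thioredoxin and glutaredoxin families, the enzymes of glutathione synthesis and recycling, soluble and microsomal glutathione transferases, quinone reductases, and the regulators Nfe2l2, Keap1 and Txnip. This choice took in 61 of the 24062 genes in the count tables. RNA was sequenced in 1 library of Gata2Venus-negative and 1 library of Gata2Venus-positive cells, called negative cells and positive cells from here on. Both groups were CD31+ KITint cells from the aorta of C57BL6 embryos at embryonic day 11, labelled as haematopoietic progenitors, and by the labels they differ in Gata2Venus alone. Gata2Venus is a fluorescent transgene that reports the haematopoietic transcription factor Gata2, so the negative group was defined by its reporter, and the labels name no deletion of Gata2 in it. Whether cells of several embryos were pooled is not given in the sources used here. As each group has 1 library, differences between them have no replicate check and carry no p-value. The 95% intervals cover counting error only, and they may be too narrow because PCR copies without molecular identifiers are counted as separate molecules. In RNA from sorted populations, fewer cells of a type and less RNA per cell cannot be told apart.

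Superoxide dismutases turn superoxide into hydrogen peroxide, which catalase, glutathione peroxidases and peroxiredoxins then break down. The peroxidases draw their electrons from NADPH, through glutathione and its reductase or through thioredoxin and its reductases, and glutathione transferases join glutathione to reactive compounds. The transcription factor NRF2, encoded by Nfe2l2 and held back by KEAP1, induces many of these genes through the antioxidant response element, and in adult bone marrow the level of reactive oxygen species is known to affect whether haematopoietic stem cells stay quiescent.

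The catalase gene, 3 class mu glutathione transferases and a few less abundant enzymes were higher in negative cells, and the mitochondrial thioredoxin reductase gene was lower. The 6 peroxiredoxin genes and the abundant cytosolic glutathione peroxidase gene Gpx1 were not past the rule used here. Under this rule of size, a gene needed, in its higher library, a count of at least 50 and a level of at least 10 CPM (counts scaled to library size), and the exact 95% interval of its ratio had to lie wholly beyond 2-fold. Of the 61 genes, 44 reached the level the rule asks for, 8 were detected below it and 9 had no count in either library. Of the 44, 7 (15.9%) were higher in negative cells, namely Cat, Gpx7, Txnrd3, Gstm3, Gstm4, Gstm5 and Mgst1, against 15.2% of the 10381 genes of the whole table that reached the level. Txnrd2 alone (2.27%) was lower, against 14.9% of all genes, and 36 were not past the rule. The share of higher genes is thus close to that of all genes, and the share of lower genes is smaller. Among genes with a mean of at least 100 CPM, where counting error is small, 1 of 15 members (Cat) was higher and 0 were lower, beside 5.51% and 4.62% of 2468 genes.

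Over the 50 members with at least 20 counts in all, the log2 ratio (negative over positive) had a median of −0.06, with 24 above 0 and 26 below. Over the 12544 such genes of the table the median was −0.01. The members' median was 0.02 when the libraries were scaled by total counts, which moved the median of all genes to 0.07. Within 2-fold lay 33 of the 50 members (66%), against 55.9% of all such genes. Of the 15 most abundant members 11 had ratios below 0, with a median of −0.35, while the 2468 genes of that level had a median of 0.03. Together the members held 5539 CPM in negative cells and 6244 CPM in positive cells.

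**Figure D1:**
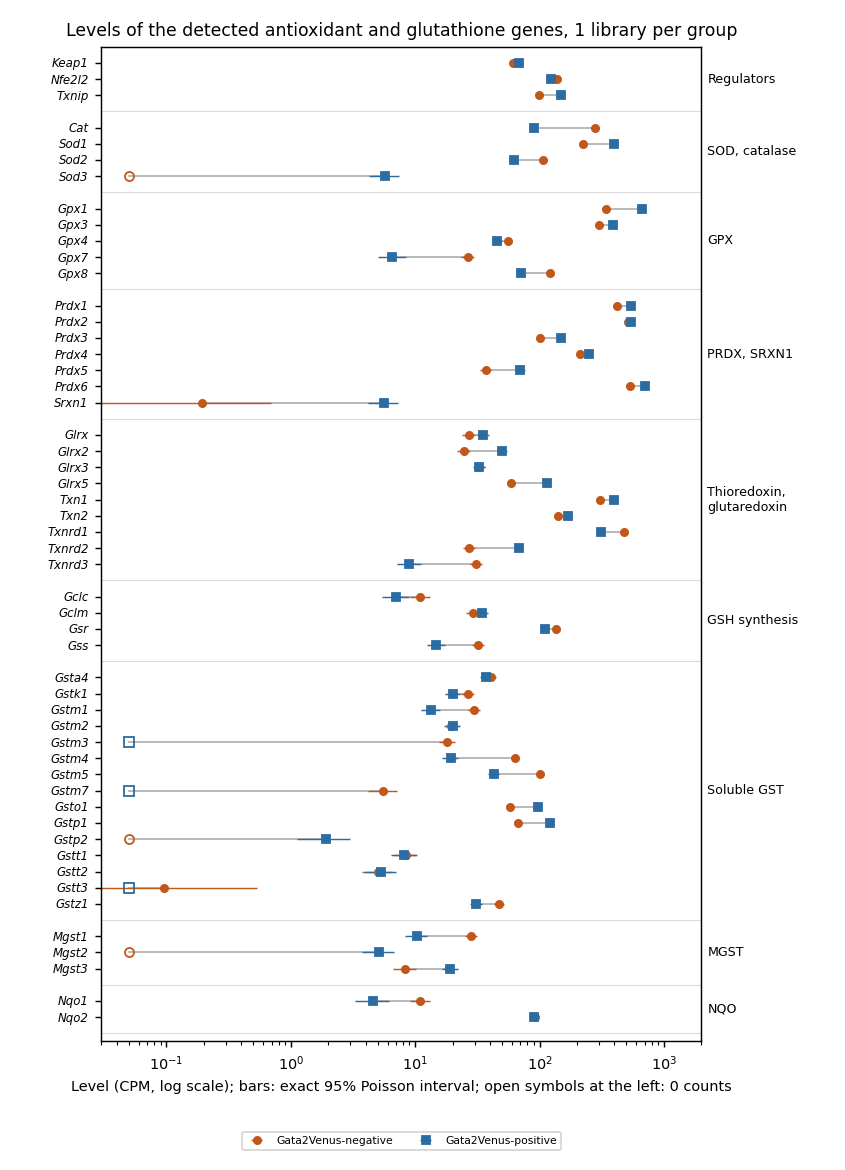
Level of each detected antioxidant and glutathione gene in CPM on a log axis, in the Gata2Venus-negative library (circles) and the Gata2Venus-positive library (squares), 1 library per group, with exact 95% Poisson intervals. Open symbols at the left edge stand for 0 counts. Catalase (Cat) is at 277 CPM in negative cells and 89.6 CPM in positive cells, while Gpx1 is at 343 and 671 CPM.

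**Figure D2:**
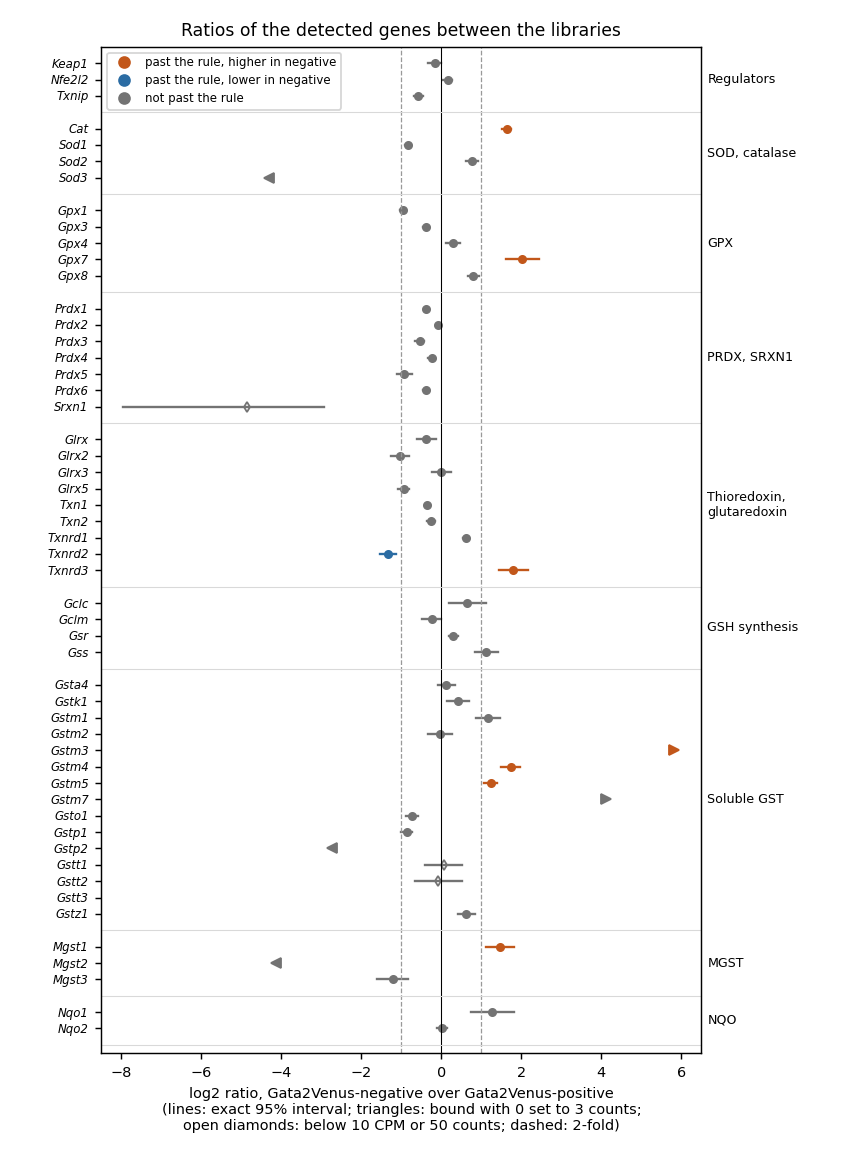
Log2 ratio of the Gata2Venus-negative over the Gata2Venus-positive library for the same genes, with exact 95% intervals. Triangles are bounds for genes with 0 counts in a library, open diamonds are genes below the level the rule asks for, and dashed lines mark 2-fold. The 7 genes higher in negative cells lie to the right, and Txnrd2 is past the rule on the left. Gstt3, with 1 count in all, has no ratio.

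**Figure D3:**
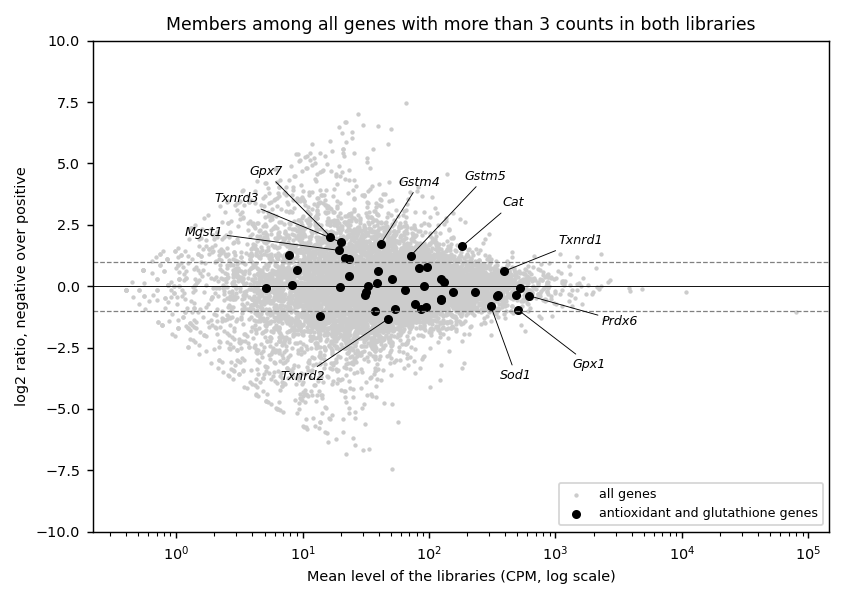
Log2 ratio of the Gata2Venus-negative over the Gata2Venus-positive library against mean level in CPM on a log axis, for all genes (grey) and the antioxidant and glutathione genes (black) with more than 3 counts in both libraries. Dashed lines mark 2-fold. Ratios spread more widely at low levels, and of the labelled abundant genes Cat alone lies past 2-fold.

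The libraries had 10135400 counts in genes for the negative and 9715131 for the positive sample, with at least 1 count for 12392 and 12709 genes. Where no count was seen, 3 counts were set as a bound, which is 0.288 CPM in negative cells and 0.317 CPM in positive cells. The exact 95% Poisson intervals for 0 counts reach further, to 0.354 and 0.390 CPM. Fold values with 3 counts in place of 0 take the other library's count as exact. The exact interval of the ratio can thus reach nearer to equal levels. All of these cover counting error only. Reads without a unique alignment were not assigned to genes, so a gene that shares sequence with others may lie above these limits. Gata2 itself was at 13.5 CPM in negative cells and 70.2 CPM in positive cells, the direction of the labels, while Kit was at 199 and 60.7 CPM, and Pecam1, which encodes CD31, at 537 and 489 CPM. The labelled cell type was checked on 12 markers of haematopoietic progenitors. Their summed level was 839 CPM in negative cells and 1371 CPM in positive cells. Of the 10 that reached the level, 1 was higher and 6 were lower in negative cells. Gfi1, Gfi1b and Myb had 0 counts there, as Gfi1 had in positive cells, and Runx1 had 21 counts in negative cells and 303 in positive cells. Markers of other cell types also moved. In the negative library 10 of 12 macrophage markers were lower (238 CPM in negative cells and 1196 CPM in positive cells, none at 0), as were 7 of 9 megakaryocyte markers that reached the level (86.9 and 467 CPM, with Gp1bb, Gp5 and Nfe2 at 0 in negative cells). Of the endothelial markers, 5 of 10 were lower (2827 and 5308 CPM, none at 0). Of 6 erythroid markers that reached the level, 3 were lower, while the sum of all was 325 CPM in negative cells and 260 CPM in positive cells. The other 3, the globin genes Hba-x, Hbb-bh1 and Hbb-y, had log2 ratios above 0 (1.18, 0.89 and 0.73) without passing the rule. Hba-a1 and Hba-a2 had 0 counts in both libraries, and Gata1, Klf1, Hemgn, Car1 and Epor had 0 in negative cells. Of mesenchymal markers, 6 of 10 were higher in negative cells (7682 and 4760 CPM, none at 0), as were 6 of 7 germ cell markers that reached the level (363 and 36.9 CPM, with Dazl and Dnd1 at 0 in positive cells). Against this, Dcn, Col1a2 and Lum of the mesenchymal list had log2 ratios of −0.74, −0.13 and −0.11, and the germ cell marker Prdm1 had −0.43. The part of these cell types in the results below was not tested.

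None of the 3 regulators was past the rule. Nfe2l2 had 1433 counts (138 CPM) in negative cells and 1165 (123 CPM) in positive cells, with a log2 ratio of 0.16 (interval 0.05 to 0.27). Keap1, the adaptor that directs NRF2 to degradation, had 638 counts and 650, or 61.3 and 68.7 CPM, with a log2 ratio of −0.17 (interval −0.33 to −0.01). Both intervals lie within 2-fold, as does that of Txnip, which encodes an inhibitor of thioredoxin (99.8 CPM in negative cells and 148 CPM in positive cells, log2 ratio −0.57, interval −0.69 to −0.46). On the opposite strand the annotated gene Gm15441 (73 counts in negative cells and 12 in positive cells) overlaps 21.4% of the exon bases of Txnip, and reads of the shared stretch cannot be told apart.

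The sequences before the start sites of 4 members are shown to set genes with the core of the antioxidant response element beside genes without it. Cat and Gstm4 were higher in negative cells and hold no match, Gstm5 was higher and holds one, and Gclm, an NRF2 target of glutathione synthesis, holds one and was not past the rule. Each line gives the 250 bases 5′ of an annotated start (RefSeq, GRCm38.p6), read along the gene's strand, with matches to TGACNNNGC on either strand in capitals. The windows are chr2:103485154-103485403 (minus strand) for Cat, chr3:108044857-108045106 (minus strand, the start of 1 of its transcripts) for Gstm4, chr3:107895604-107895853 (plus strand) for Gstm5 and chr3:122245307-122245556 (plus strand) for Gclm.
Cat: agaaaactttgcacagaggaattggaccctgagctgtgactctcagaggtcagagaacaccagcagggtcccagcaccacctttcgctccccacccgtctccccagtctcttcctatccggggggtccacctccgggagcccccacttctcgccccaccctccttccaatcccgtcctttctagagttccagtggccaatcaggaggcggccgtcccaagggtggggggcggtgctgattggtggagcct
Gstm4: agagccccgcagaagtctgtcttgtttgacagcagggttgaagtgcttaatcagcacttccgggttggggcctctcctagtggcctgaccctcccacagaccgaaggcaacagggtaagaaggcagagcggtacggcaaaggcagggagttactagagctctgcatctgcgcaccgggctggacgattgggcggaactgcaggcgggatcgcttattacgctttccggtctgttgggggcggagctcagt
Gstm5: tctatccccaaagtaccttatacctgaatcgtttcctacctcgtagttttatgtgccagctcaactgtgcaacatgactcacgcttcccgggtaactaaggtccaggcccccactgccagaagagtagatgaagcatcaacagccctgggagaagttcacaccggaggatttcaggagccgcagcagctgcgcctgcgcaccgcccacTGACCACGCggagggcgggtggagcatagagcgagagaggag
Gclm: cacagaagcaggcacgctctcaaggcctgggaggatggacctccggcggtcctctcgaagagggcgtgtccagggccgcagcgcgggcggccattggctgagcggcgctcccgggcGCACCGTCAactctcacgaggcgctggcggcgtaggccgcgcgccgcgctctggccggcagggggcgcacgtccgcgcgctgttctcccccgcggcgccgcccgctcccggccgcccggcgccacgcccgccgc
The match of Gstm5 is TGACCACGC, starting 42 bases before the start site, and that of Gclm is GCACCGTCA, the motif read on the other strand, starting 134 bases before it. RefSeq windows were found for 55 of the 61 members. With 50 bases after the start added, 10 of the 55 genes (18.2%) held a match, against 3781 of 27025 genes (13.99%). By window, the shares were 13.5% of 74 member windows and 12.4% of all 32851. Of the 8 members past the rule, 2 held a match (Gstm5 and Mgst1), and of the other 47 with a window, 8 did (Gclm, Gsta3, Gstm7, Nfe2l2, Prdx1, Sod1, Srxn1 and Txnrd1). A match describes these letters alone, and a window without one says nothing of NRF2.

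Of the superoxide dismutases and catalase, Cat was higher in negative cells. Cat (chr2:103453849-103485160, mm10), the peroxisomal enzyme that splits hydrogen peroxide, had 2888 counts (277 CPM, interval 267 to 288) in negative cells and 847 (89.6 CPM, interval 83.6 to 95.8) in positive cells. It was 3.10-fold higher in negative cells, with a log2 ratio of 1.63 (interval 1.52 to 1.74). Its exons share no run of 50 bases with another annotated gene. Sod1, the cytosolic copper and zinc enzyme, had 2320 counts (223 CPM) in negative cells and 3729 (394 CPM) in positive cells, a log2 ratio of −0.82 (interval −0.90 to −0.75). Sod2, the mitochondrial manganese enzyme, had 1100 counts (106 CPM) in negative cells and 591 (62.5 CPM) in positive cells, a log2 ratio of 0.76 (interval 0.61 to 0.90). The enzymes of the cytosol and of mitochondria thus had ratios of opposite sign, each within 2-fold. The secreted enzyme Sod3 had 0 counts in negative cells and 54 (5.71 CPM) in positive cells, which lies below the level the rule asks for. With 3 counts in place of 0, its level was 19.8-fold lower in negative cells, and the exact interval of its log2 ratio ended at −3.96.

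Gpx7 was the glutathione peroxidase gene past the rule, among 5 that reached the level. Gpx7 (chr4:108400390-108406961), a peroxidase of the endoplasmic reticulum, had 277 counts (26.6 CPM) in negative cells and 62 (6.56 CPM) in positive cells, 4.06-fold higher (log2 ratio 2.02, interval 1.62 to 2.44). Gpx8, its close relative in the same compartment, had 1268 counts (122 CPM) in negative cells and 665 (70.3 CPM) in positive cells, with a log2 ratio of 0.79 (interval 0.66 to 0.93). The abundant cytosolic enzyme Gpx1 (chr9:108338903-108340343) had 3572 counts (343 CPM) in negative cells and 6347 (671 CPM) in positive cells. Its log2 ratio of −0.97 (interval −1.03 to −0.91) lies across 2-fold, and it was the member nearest to the rule without passing. Gpx3, the secreted plasma enzyme, had 301 CPM in negative cells and 393 CPM in positive cells (log2 ratio −0.38, interval −0.45 to −0.31). Gpx4, which repairs lipid peroxides, had 55.8 and 45.6 CPM (log2 ratio 0.29, interval 0.11 to 0.48), and 51.4% of its 50-base exon windows also occur in other annotated genes, so its count is uncertain. Gpx2, Gpx5 and Gpx6 had no count in either library. Ratios between genes of 1 library do not depend on the scaling between libraries. For Gpx1 over Cat, a pair chosen with the values known, the count ratio was 1.24 in negative cells and 7.49 in positive cells, so that the ratio in the negative library was 0.165 times that in the positive (exact interval 0.151 to 0.180).

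None of the 6 peroxiredoxin genes was past the rule. Prdx6, which also has phospholipase activity, had 5587 counts (537 CPM) in negative cells and 6677 (706 CPM) in positive cells, with a log2 ratio of −0.40 (interval −0.45 to −0.34). Prdx1 of the cytosol had 421 CPM in negative cells and 548 CPM in positive cells (log2 ratio −0.38), and Prdx2, an abundant protein of red cells, had 512 and 541 CPM (log2 ratio −0.08, interval −0.14 to −0.03). Prdx4, which works in the secretory pathway, had 211 CPM in negative cells and 249 CPM in positive cells (log2 ratio −0.24). The mitochondrial Prdx3 and Prdx5 had log2 ratios of −0.54 and −0.92. All 6 ratios were below 0, none beyond 2-fold. With total-count scaling that of Prdx2 was −0.0042. Prdx5 shares 28.3% of its exon bases with Trmt112 on the opposite strand, and reads of the shared bases cannot be told apart. Srxn1, the sulfiredoxin that reactivates over-oxidised peroxiredoxins, had 2 counts (0.192 CPM) in negative cells and 53 (5.60 CPM) in positive cells. Its log2 ratio was −4.87 (interval −7.95 to −2.94), at a level below what the rule asks for.

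Of the 3 thioredoxin reductases, selenoenzymes that return thioredoxin to its reduced form, 1 was higher in negative cells, 1 was lower and 1 was not past the rule. Txnrd3 (chr6:89643988-89675529), a testis-rich form that also reduces glutathione, had 324 counts (31.1 CPM) in negative cells and 85 (8.99 CPM) in positive cells and was 3.46-fold higher (log2 ratio 1.79, interval 1.44 to 2.15). Txnrd2 (chr16:18426384-18479073), the mitochondrial enzyme, had 283 counts (27.2 CPM) in negative cells and 645 (68.2 CPM) in positive cells and was 2.51-fold lower (log2 ratio −1.33, interval −1.53 to −1.12). Txnrd1, the cytosolic enzyme and the most abundant of the 3, had 4972 counts (478 CPM) in negative cells and 2953 (312 CPM) in positive cells, a log2 ratio of 0.61 (interval 0.55 to 0.68) within 2-fold. The count ratio of Txnrd1 over Txnrd2 was 17.6 in negative cells and 4.58 in positive cells, 3.84 times as large in the negative (exact interval 3.31 to 4.46), again for a pair chosen with the values known. The substrates of these enzymes were not past the rule. Txn1, the cytosolic thioredoxin, had 308 CPM in negative cells and 394 CPM in positive cells (log2 ratio −0.35, interval −0.42 to −0.28), and the mitochondrial Txn2 had 141 and 169 CPM (log2 ratio −0.26). The 4 glutaredoxin genes had log2 ratios of −1.02 for Glrx2, −0.94 for Glrx5, −0.38 for Glrx and 0.00 for Glrx3. Glrx2 and Glrx5 act in mitochondria, Glrx5 in the making of iron-sulfur clusters, and the intervals of both reached across 2-fold.

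The 4 genes of glutathione synthesis and recycling reached the level and none was past the rule. Gclc and Gclm encode the catalytic and modifier subunits of glutamate-cysteine ligase, which carries out the rate-limiting step. Gclc had 114 counts (10.9 CPM) in negative cells and 66 (6.98 CPM) in positive cells (log2 ratio 0.65, interval 0.20 to 1.11), and Gclm had 302 counts (29.0 CPM) and 325 (34.4 CPM) (log2 ratio −0.24, interval −0.48 to −0.01). Gss, which adds glycine in the last step, had 335 counts (32.2 CPM) in negative cells and 140 (14.8 CPM) in positive cells, a log2 ratio of 1.12 whose interval (0.83 to 1.42) reached below 2-fold. Gsr, the reductase that restores glutathione from its disulfide, had 137 CPM in negative cells and 112 CPM in positive cells (log2 ratio 0.30, interval 0.18 to 0.41).

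The class mu glutathione transferases held 3 of the 7 genes higher in negative cells. Their 7 genes lie within 149 kb of chromosome 3 (chr3:107895821-108044894, mm10), and 5 reached the level the rule asks for. Gstm5 had 1046 counts (100.5 CPM, interval 94.5 to 107) in negative cells and 404 (42.7 CPM, interval 38.7 to 47.1) in positive cells and was 2.35-fold higher (log2 ratio 1.23, interval 1.07 to 1.40), the member nearest to the edge of the rule among those that passed. Gstm4 had 664 counts (63.8 CPM) in negative cells and 182 (19.2 CPM) in positive cells and was 3.31-fold higher (log2 ratio 1.73, interval 1.49 to 1.97). Gstm3 had 187 counts (18.0 CPM) in negative cells and 0 in positive cells. With 3 counts in place of 0 it was 56.6-fold higher, and the exact interval of its log2 ratio began at 5.51. Positive cells thus had lower counts of all 3, and Gstm3 was not detected in them. Gstm1 had 310 counts (29.8 CPM) in negative cells and 126 (13.3 CPM) in positive cells, with a log2 ratio of 1.16 whose interval (0.86 to 1.47) reached below 2-fold. Gstm2, between Gstm3 and Gstm1 on the chromosome, had 203 counts (19.5 CPM) in negative cells and 189 (19.98 CPM) in positive cells (log2 ratio −0.04, interval −0.33 to 0.26). Gstm7 had 57 counts (5.47 CPM) in negative cells and 0 in positive cells, below the level of the rule, and Gstm6 had no count in either.

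**Figure D4:**
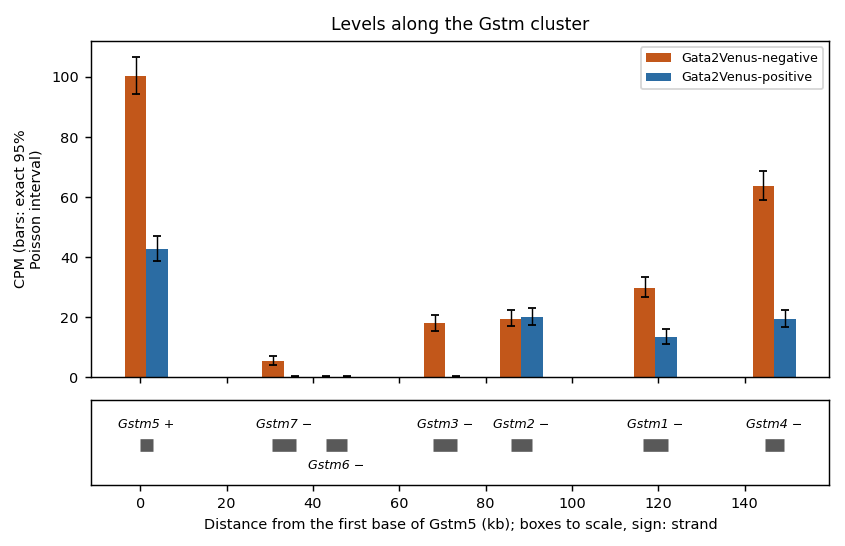
Levels in CPM along the Gstm cluster of chromosome 3 in the Gata2Venus-negative (left bar) and Gata2Venus-positive (right bar) libraries, 1 library per group, with exact 95% Poisson intervals. The x axis is the distance in kb from the first base of Gstm5, and boxes below show the genes to scale with their strand. Gstm5 and Gstm4 at the ends of the cluster are at 100.5 and 63.8 CPM in negative cells and 42.7 and 19.2 CPM in positive cells, and Gstm2 is at 19.5 and 19.98 CPM.

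Summed over the 7 genes, the class held 237 CPM in negative cells and 95.3 CPM in positive cells (log2 ratio 1.31, interval 1.20 to 1.43). The 14 other soluble transferases, of the alpha, kappa, omega, pi, theta and zeta classes, summed to 253 and 322 CPM (log2 ratio −0.35, interval −0.42 to −0.27), and none of the 5 that reached the level was past the rule. Of the 50-base exon windows, 28.8% of Gstm3, 21.0% of Gstm1, 10.1% of Gstm6, 8.30% of Gstm2 and 0% of Gstm4 and Gstm7 also occur in other annotated genes, so the counts of those with shared windows are uncertain to that extent. Of Gstm5 windows 13.0% also occur in other annotated genes, and the antisense gene 4933431E20Rik overlaps 17.9% of its exon bases and had 3 counts in negative cells and 0 in positive cells. Most mesenchymal and germ cell markers that reached the level were also higher in negative cells (above), while Dcn, Col1a2, Lum and Prdm1 had log2 ratios below 0. The part of such cells in the class mu levels was not tested.

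Among the other soluble transferases, Gstp1, the pi-class enzyme, had 697 counts (66.9 CPM) in negative cells and 1150 (122 CPM) in positive cells, a log2 ratio of −0.86 (interval −0.999 to −0.72). Its neighbour Gstp2 had 0 counts in negative cells and 18 in positive cells. As 58.6% of the windows of Gstp1 and 72.6% of those of Gstp2 occur elsewhere, both counts are uncertain. Gsto1, the omega-class enzyme, had 57.9 CPM in negative cells and 96.6 CPM in positive cells (log2 ratio −0.74, interval −0.89 to −0.59). Gstz1, which acts in tyrosine breakdown, had 47.4 CPM in negative cells and 31.0 CPM in positive cells (log2 ratio 0.62, interval 0.40 to 0.83), and 21.6% of its exon bases overlap Pomt2. Gsta4, which handles lipid aldehydes, and Gstk1 of mitochondria and peroxisomes had log2 ratios of 0.13 and 0.41. Gstt1 and Gstt2, below the level of the rule, had log2 ratios of 0.05 and −0.08, and Gstt3 had 1 count in negative cells and 0 in positive cells. Gsta1, Gsta2, Gsta3, Gsto2 and Gstt4 had no count in either library. As 89.7% of the windows of Gsta1 and 64.2% of those of Gsta2 occur in other annotated genes, their lack of counts is uncertain. The count ratio of Gstm5 over Gstp1, a pair chosen with the values known, was 1.501 in negative cells and 0.351 in positive cells.

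The 3 microsomal transferases, membrane proteins of another fold, had ratios of both signs. Mgst1 (chr6:138140316-138156755), a membrane-bound enzyme with peroxidase activity, had 294 counts (28.2 CPM) in negative cells and 97 (10.3 CPM) in positive cells and was 2.75-fold higher (log2 ratio 1.46, interval 1.13 to 1.81). Mgst3 had 86 counts (8.26 CPM) in negative cells and 181 (19.1 CPM) in positive cells, a log2 ratio of −1.21 whose interval (−1.60 to −0.83) reached within 2-fold. Mgst2, which can make leukotriene C4, had 0 counts in negative cells and 48 (5.08 CPM) in positive cells, below the level of the rule. Of the quinone reductases, Nqo1, a classic NRF2 target, had 114 counts (10.9 CPM) in negative cells and 43 (4.55 CPM) in positive cells (log2 ratio 1.27, interval 0.75 to 1.81), and Nqo2 had 91.4 and 90.3 CPM (log2 ratio 0.02, interval −0.12 to 0.15).

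Per kilobase of exon, which allows a rough comparison of levels between genes, the same 5 genes led in both libraries. Reads without a unique alignment were not counted, while the whole exon length was used. Levels per kilobase of genes with shared windows may thus be too low. Such windows made up 23.1% of those of Sod1, 20.1% of Prdx2, 51.4% of Gpx4 and 58.6% of Gstp1, so ranks and shares are approximate. In the negative library the order was Sod1 (348 CPM per kb), Gpx1 (320), Txn1 (293), Prdx2 (276) and Prdx6 (215). In the positive library it was Gpx1 (626 CPM per kb), Sod1 (615), Txn1 (375), Prdx2 (292) and Prdx6 (283). Cat was the 11th of the members in negative cells with 106 CPM per kb and the 22nd in positive cells with 34.3. Of the summed level per kilobase, peroxiredoxins and sulfiredoxin made up 29.2% in negative cells and 29.4% in positive cells, and glutathione peroxidases 20.9% and 24.2%.

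Other genes of the redox pathways were taken as 6 lists. Of their 70 genes that reached the level, 13 (18.6%) were lower and 2 (2.86%) higher in negative cells, beside the 14.9% and 15.2% of all genes. Hmox1, which breaks down haem and is an NRF2 and BACH1 target, had 348 counts (33.4 CPM) in negative cells and 3157 (334 CPM) in positive cells and was 9.99-fold lower (log2 ratio −3.32, interval −3.48 to −3.16). Fth1, the ferritin heavy chain, had 5884 counts in negative cells and 12301 in positive cells and was 2.30-fold lower (log2 ratio −1.20). These were the 2 of 14 genes of the list of NRF2 targets and NADPH enzymes that were past the rule, and none was higher (median log2 ratio −0.38 over 15 genes, against −0.01 for all genes). Of 10 NRF2 partners and regulators, 2 were lower and none higher (median −0.02 over 11 genes). Bach1, a haem-sensing repressor of Hmox1, had 59 counts (5.67 CPM) in negative cells and 439 (46.4 CPM) in positive cells and was 8.19-fold lower (log2 ratio −3.03, interval −3.45 to −2.64). Nfe2, a factor of megakaryocytes and red cells that is also a megakaryocyte marker here, had 0 counts in negative cells and 106 in positive cells. With 3 counts in place of 0 it was 38.9-fold lower, and the exact interval of its log2 ratio ended at −4.96.

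Of 9 genes of glutathione turnover and the glyoxalases, 1 was higher and 1 lower (median −0.38 over 13 genes), beside 15.2% and 14.9% of all genes. Oplah, the 5-oxoprolinase that recovers glutamate from glutathione breakdown, had 657 counts (63.1 CPM) in negative cells and 18 (1.90 CPM) in positive cells and was 33.2-fold higher (log2 ratio 5.05, interval 4.38 to 5.82). Chosen after their values were seen, 4 low genes were at or near 0 in negative cells. The cystine importer gene Slc7a11 had 1 count in negative cells and 37 in positive cells, the glutathione-cleaving Chac1 and Chac2 had 1 and 1 against 57 and 52, and the glutamyl transferase Ggt5 had 0 against 81, all below 10 CPM. The opposite was seen for Noxo1, an organizer of NADPH oxidase 1 also chosen after its value was seen. It had 100 counts (9.60 CPM) in negative cells and 2 in positive cells (log2 ratio 5.51, interval 3.61 to 8.57). Nox1, the gene of that oxidase, and Noxa1 had 0 counts in both libraries.

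Of 13 genes of selenoprotein synthesis and methionine repair, 2 were lower and none higher (median −0.27 over 15 genes). Beside this and the next 2 lists stand the shares of all genes, 14.9% lower and 15.2% higher. They were Secisbp2, which binds the selenocysteine insertion element (119 counts in negative cells and 274 in positive cells, log2 ratio −1.34), and the mitochondrial methionine sulfoxide reductase Msrb2 (61 and 155 counts, log2 ratio −1.48). Of 18 thioredoxin-fold, metallothionein, copper chaperone and sestrin genes, 1 was higher and 3 were lower (median 0.08). Txnl4b, a thioredoxin-like protein linked to splicing, had 604 counts in negative cells and 179 in positive cells and was 3.07-fold higher. The metallothionein genes Mt1 and Mt2 had 116 and 48 counts in negative cells, against 890 and 137 in positive cells, 8.45-fold and 3.14-fold lower. The sestrin gene Sesn3 was 3.08-fold lower (59 counts in negative cells and 165 in positive cells). Of 6 genes of the superoxide-producing NADPH oxidases, 3 were lower and none higher (median −0.54 over 8 genes). Nox4, an oxidase of vessels and kidney, had 0 counts in negative cells and 340 in positive cells. With 3 counts in place of 0 it was 125-fold lower, and the exact interval of its log2 ratio ended at −6.66. The phagocyte oxidase genes Ncf1 and Cybb each had 1 count in negative cells, while positive cells had 494 for Ncf1 and 130 for Cybb, with log2 ratios of −9.09 (interval −14.39 to −6.60) and −7.16 (interval −12.48 to −4.66). The macrophage markers, 10 of 12 lower in negative cells (238 CPM in negative cells and 1196 CPM in positive cells), moved with Hmox1, Fth1, Ncf1 and Cybb, and their part in these results was not tested.

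**Figure D5:**
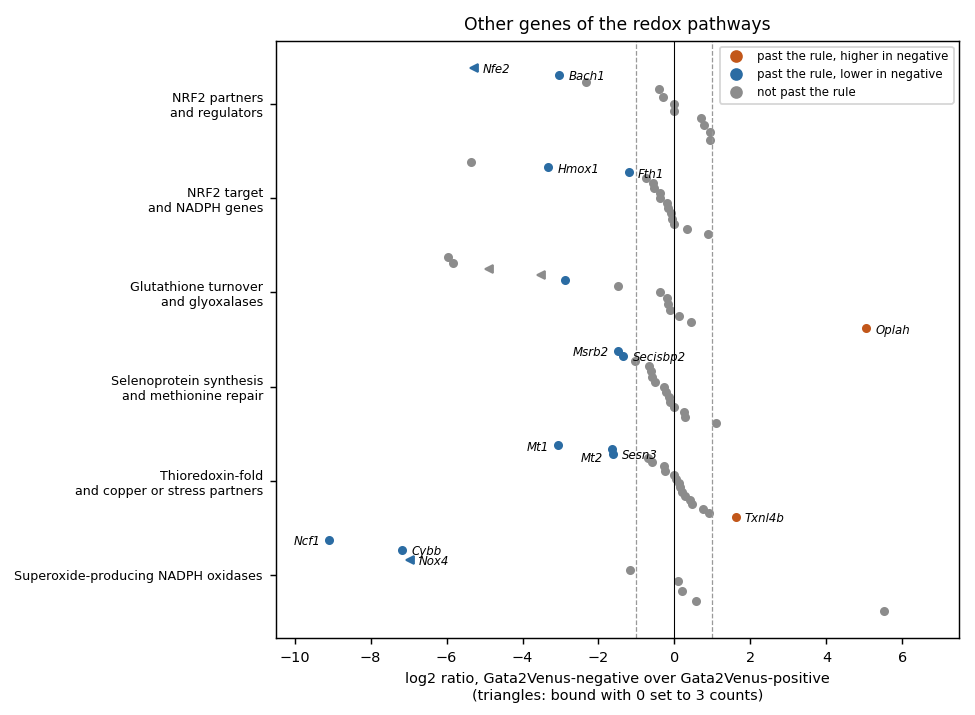
Log2 ratio of the Gata2Venus-negative over the Gata2Venus-positive library for the genes of 6 further redox lists with at least 20 counts over both libraries, 1 point per gene. Triangles are bounds for genes with 0 counts in a library, and dashed lines mark 2-fold. Coloured points are past the rule, with Oplah and Txnl4b higher in negative cells and 13 genes lower, from Fth1 (−1.20) to Ncf1 (−9.09).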

How the data were processed

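RNA of the 2 sorted populations was prepared with the mirVana kit and the SMARTER protocol, which amplifies cDNA by PCR, and sequenced on Illumina libraries, per the labels' protocols. TopHat, Cufflinks and HTSeq with build mm10 are named per the submitters' processing notes; for their versions, the annotation and strand use, nothing is given in the sources used here. The authors deposited 1 table per library of raw counts, whole numbers by gene symbol without normalization. The 5 rows that name no gene were left out of library sizes and comparisons; reads without a unique alignment made up 45.5% of the negative and 48.2% of the positive table, no feature 5.93% and 7.996%, and ambiguous reads 0.474% and 0.412%.

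Counts were scaled by edgeR 4.0.16 TMM factors (1.03 for the negative and 0.974 for the positive library) in R 4.3.3. Ratios have exact Clopper-Pearson and levels exact Poisson 95% intervals, and 0 counts are bounded by 3 counts, also in medians. The rule of size stood in for a test. The steps were checked on simulated counts that held counting error alone, so this check says nothing of PCR copies or of variation between replicate libraries. Values are given for each member past the rule, up to 4 of the most abundant per role, and up to 4 genes past the rule per other list. Other members given in full were chosen after their values were seen. The members and lists were chosen with earlier results of these data known. Coordinates and exon lengths come from GENCODE vM21, matched by symbol (94.5% of genes, all 61 members). A few genes are left unnamed and are not reported here; counts and medians of lists include them. Read length is not given, and 50 bases was assumed for shared windows. Alternatives were 3 other scalings (one by DESeq2 1.42.0), 3 filters, 2 sizes and 0.5 counts added to each gene.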

Additional observations from a re-analysis of the deposited data

How the results depend on the processing

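No paired analysis was possible because each group has 1 library, and for the same reason no replicate could be left out. The 3 other scalings and 0.5 added counts changed no member's call, 7 higher and 1 lower. With 1 CPM and 10 counts asked for, 51 members and 12868 genes reached the level. Of the members 8 (15.7%) were higher, gaining Gstm7, and 5 (9.8%) lower, gaining Gstp2, Mgst2, Sod3 and Srxn1, beside 2297 (17.9%) and 2484 (19.3%) of all genes. With 50 CPM, 3 of 27 members (11.1%) were higher, without Gpx7, Gstm3, Mgst1 and Txnrd3, and 1 (3.7%) was lower. Of the 5659 genes at that level, 629 (11.1%) were higher and 545 (9.63%) lower. With the interval beyond 4-fold, 1 of 44 members (2.27%) was higher (Gstm3) and 0 lower, beside 744 (7.17%) and 751 (7.23%) of 10381 genes. With a 2-fold ratio without its interval 10 members (22.7%) were higher, adding Gss, Gstm1 and Nqo1, and 3 (6.82%) lower, adding Glrx2 and Mgst3, beside 19.1% and 18.6% of all genes. Asking for more than 3 counts in both libraries removed Gstm3, whose call rests on 0 counts. The members' median ranged from −0.08 to 0.02. Over the 51 members with a ratio or bound and 9 alternatives, 432 values stayed on their side of the rule, 10 came past it and 11 fell back, and no call turned round. For 6 members the alternative of more than 3 counts in both libraries gives no value. The level asked for left 8 detected members uncalled, and few counts gave wide intervals, as for Srxn1 (−7.95 to −2.94).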
